A study of Mus musculus with 10 samples.

Results

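Skeletal and trunk mesenchyme regulators are 10 genes known from cartilage, limb and trunk mesenchyme: Sox5, Sox6, Sox9, Acan, Matn4, Pax1, Pax9, Prrx1, Twist1 and Twist2. They were taken by name, with every probe set annotated to 1 of these symbols, which gave 29 of the 45101 probe sets and 10 of the 18193 genes of the array. They were read in 10 pools of metanephric mesenchyme, the embryonic kidney tissue around the ureteric bud, from E11.5 mouse embryos. The 5 mutant pools were Wnt9b-/-, lacking from the whole embryo a Wnt ligand that the ureteric bud makes, and the 5 wild-type pools were labelled Wnt9b+/+ littermates, although the series' design text calls the controls heterozygous. Each pool joined 25 to 30 mesenchymes that had been freed of the bud with trypsin and pancreatin, so single embryos are not resolved, and each was read on 1 Affymetrix array. P-values therefore measure the spread between these pools, which may be partly technical. The comparison asks which mesenchymal transcripts differ without Wnt9b, and here whether genes of neighbouring or altered mesenchyme are among them.

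Sox9 is the transcription factor that starts the cartilage program, and Sox5 and Sox6 act with it on cartilage matrix genes such as Acan, the large proteoglycan of cartilage, and the matrilins. Pax1 and Pax9 are paired-box factors of the sclerotome, the somite tissue that forms vertebrae. Twist1 and Twist2 are closely related basic helix-loop-helix factors, and Prrx1 is a paired-related homeobox factor, both families acting in limb, craniofacial and trunk mesenchyme. Several of these genes are not limited to the skeleton: Sox9 also works in the ureteric bud tip, Sox6 in red cell precursors and Twist1 in neural crest.

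The promoters of Twist1, Twist2 and Prrx1 are shown because these 3 genes were bright, and because the Twist pair, alike in function, did not differ alike between the genotypes. Each sequence is the 250 bases before a RefSeq start site of GRCm38.p6, read 5′ to 3′ on the gene's strand. The Prrx1 start used lies inside the RefSeq span of the gene, which reaches 163315145 at its 5′ end. Capitals mark CCAAT (either strand), the core of the CCAAT box, and TAATTA, a core that paired-related homeodomain proteins recognise.
Twist1, chr12:33957421-33957670, plus strand: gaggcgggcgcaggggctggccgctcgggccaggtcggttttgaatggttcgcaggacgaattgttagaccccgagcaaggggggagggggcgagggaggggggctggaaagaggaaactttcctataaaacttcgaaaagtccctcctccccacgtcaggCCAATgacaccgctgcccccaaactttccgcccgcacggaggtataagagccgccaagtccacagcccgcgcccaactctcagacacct
Twist2, chr1:91801211-91801460, plus strand: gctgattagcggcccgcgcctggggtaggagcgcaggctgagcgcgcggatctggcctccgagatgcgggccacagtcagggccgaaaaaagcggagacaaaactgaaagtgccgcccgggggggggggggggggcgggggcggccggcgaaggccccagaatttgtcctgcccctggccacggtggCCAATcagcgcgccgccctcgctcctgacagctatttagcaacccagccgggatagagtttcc
Prrx1, chr1:163313651-163313900, minus strand: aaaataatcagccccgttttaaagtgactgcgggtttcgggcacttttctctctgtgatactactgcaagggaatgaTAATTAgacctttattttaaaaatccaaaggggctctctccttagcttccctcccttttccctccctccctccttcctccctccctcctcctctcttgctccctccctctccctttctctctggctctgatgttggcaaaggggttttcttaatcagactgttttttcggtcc
Both Twist promoters hold 1 CCAAT, with its first base at -89 from the Twist1 start and at -63 from the Twist2 start, and the Prrx1 promoter holds 1 TAATTA, with its first base at -173. CCAAT occurs in 33.8% of the 32851 promoter windows of this length and TAATTA in 4.84%. None of the 3 windows holds CANNTG, the E-box that basic helix-loop-helix factors bind (66.2% of windows), or CTTTGA on either strand, a core of the Tcf and Lef sites through which canonical Wnt signalling acts (13.8%). Letter matches describe these windows and say nothing of binding. The RefSeq promoter table held 9 of the 10 members.

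Values are log2(signal + 1), where signal is the deposited probe-set intensity, and a gene stands on its brightest probe set. Arrays correlated at 0.92 to 0.95 over probe sets, and array medians lay between 5.99 and 6.30. Signal of 18S ribosomal RNA at its 5′ end split the arrays. The 4 with signals of 1975 to 2587 (mutant replicates 4 and 5, wild-type replicates 2 and 5) are here called high-18S. The 6 with signals of 92.4 to 322 are called low-18S, and differences inside each set are given for each member. In bulk RNA, a change in the share of a cell type and a change in its RNA per cell cannot be told apart. Of the labelled tissue, 11 measured marker genes of the metanephric mesenchyme averaged 6.68 to 10.56, among them Eya1, Six2 and Osr1. Wnt9b itself read 5.42 to 6.74 in the mutant and 6.31 to 6.65 in wild type, which checks no label, since where its probes lie relative to the deletion is not given. For scale, 22 genes of other organs, such as the hormones Gcg and Prl, averaged 1.94 to 7.49 (median 4.48). Sox9, Twist1, Twist2 and Prrx1 averaged above that range, and the other 6 members lay within it.

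All 10 members had a higher mean level in the mutant on the brightest probe set, by a median of 0.38, where the median over all genes was 0.02 and 54.9% of genes were higher. None was called at an adjusted p under 0.05 (limma, Benjamini-Hochberg over 18193 genes), a threshold that 0.00550% of genes passed. At an unadjusted limma p under 0.05, 4 of 10 members were higher (Twist1, Pax1, Matn4 and Prrx1) and 0 lower, where 3.41% of all genes were higher and 2.08% lower. Members were chosen with earlier results of these data known, so shares above those of all genes may follow from the choice. Twist1 was the single member whose mutant and wild-type arrays did not overlap, as were 0.654% of genes in that direction. Over all 29 probe sets of the members, 21 were higher and 8 lower, with a median of 0.28, and 51.8% of all probe sets were higher. At an unadjusted p under 0.05 in the limma fit over all probe sets 4 of the 29 were higher and 1 lower, where 2.56% and 1.95% of all probe sets were. None of the 29 was called in that fit (0.00444% of all probe sets were).

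**Figure D1:**
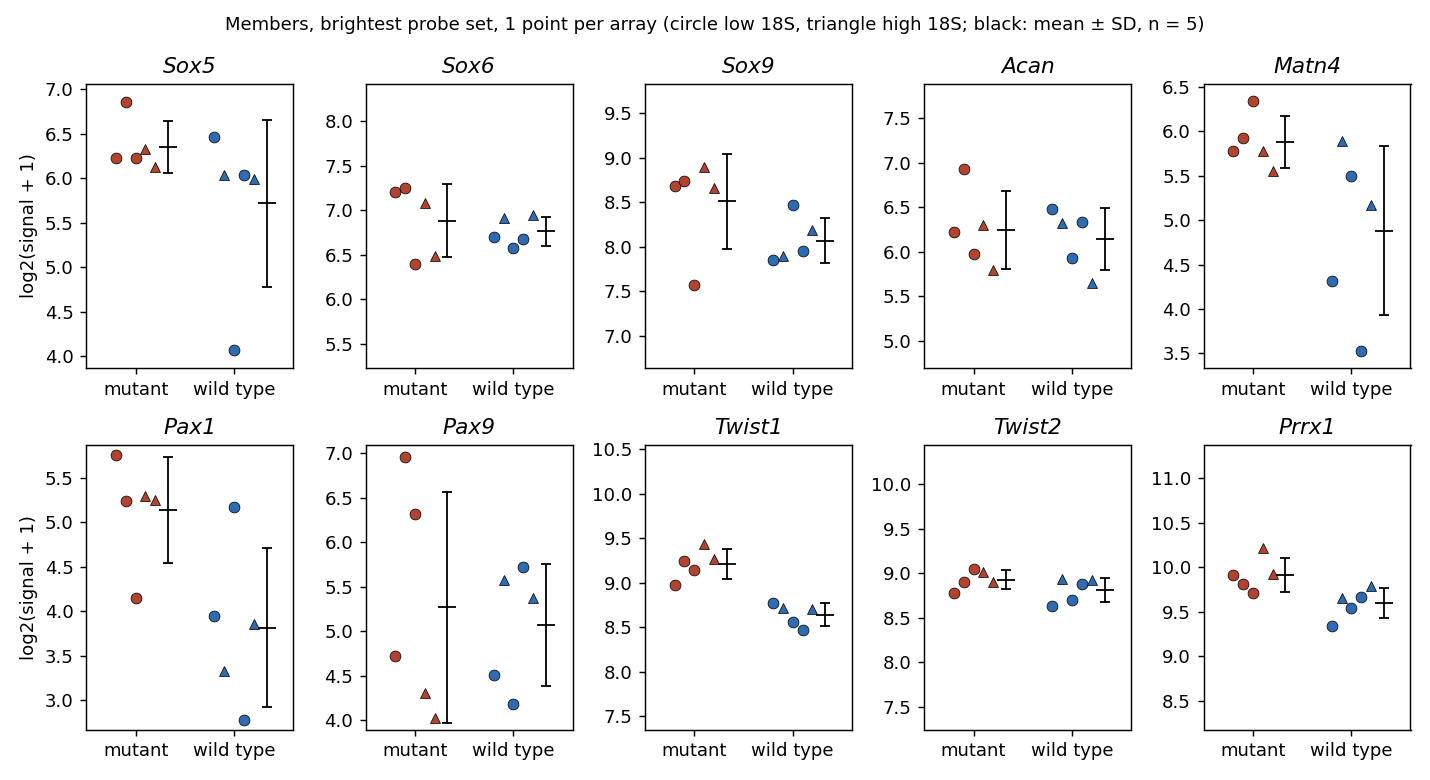
Log2(signal + 1) of the 10 members on their brightest probe sets, 1 point per array, mutant left and wild type right in each panel. Triangles are the 4 high-18S arrays, black bars are mean ± SD (n = 5), and every panel spans the same log2 range. Twist1 separates the groups, with mutant arrays from 8.98 and wild-type arrays up to 8.77, and the other panels overlap.

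Twist1, which keeps mesenchymal cells from differentiating early, had the smallest limma p of the members. Its level in mutant replicates 1 to 5 was 8.98, 9.24, 9.15, 9.43 and 9.26, against 8.77, 8.71, 8.56, 8.46 and 8.70 in wild-type replicates 1 to 5. All 5 mutant arrays thus lay above all 5 wild-type arrays. The means were 9.21 ± 0.17 in the mutant and 8.64 ± 0.13 in wild type (SD, n = 5 each), a difference of 0.57 (SE 0.12, 95% interval 0.31 to 0.83) or 1.49-fold. It ranked 29 of 18193 genes by limma p (p = 0.000667, adjusted p = 0.403), and the exact permutation test over all arrangements of the arrays gave p = 0.00794, the smallest it can give, as it did for 1.21% of all genes. High-18S arrays alone gave 0.64 and low-18S arrays alone 0.53. The difference lay between 0.52 and 0.63 on leaving out any 1 array.

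Twist2, a factor of dermal and skeletal precursors, differed less. Its level in mutant replicates 1 to 5 was 8.78, 8.90, 9.05, 9.01 and 8.90, against 8.64, 8.93, 8.70, 8.88 and 8.93 in wild type. The groups overlapped, with a difference of 0.12 (SE 0.11, 95% interval -0.12 to 0.35, limma adjusted p = 0.992). The interval reaches a 1.28-fold increase, and that of Twist1 runs from 1.24-fold to 1.78-fold, so both intervals overlap. For Twist2, high-18S arrays alone gave 0.03 and low-18S arrays alone 0.17. Within each array, Twist1 minus Twist2 was 0.10 to 0.42 in the mutant (mean 0.28 ± 0.13) and -0.41 to 0.13 in wild type (mean -0.17 ± 0.20, SD, n = 5 each). The gap between both genes thus differed by 0.46 between the genotypes (exact permutation p = 0.0159, a comparison chosen after the values were seen). A scale factor common to an array cancels in it. High-18S arrays alone gave 0.61 and low-18S arrays alone 0.35. The groups overlapped through wild-type replicate 1, the 1 wild-type array above 0.

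Prrx1 was measured by 6 probe sets, which did not differ alike. On the brightest, 1425528_at, mutant replicates 1 to 5 were at 9.92, 9.81, 9.71, 10.21 and 9.92, against 9.33, 9.65, 9.55, 9.67 and 9.78 in wild type. Mutant replicate 3 was below wild-type replicate 5, and the other 4 mutant arrays were above all wild-type arrays. The difference was 0.32 (SE 0.13, 95% interval 0.03 to 0.61, limma p = 0.0352, adjusted p = 0.880, exact permutation p = 0.0159). It was 0.35 over high-18S arrays and 0.30 over low-18S arrays. The unadjusted limma p was above 0.05 on leaving out any of 6 arrays, up to 0.0858 without wild-type replicate 1, and was 0.0522 in the fit over all probe sets. The second probe set, 1439774_at, differed by 0.53 (SE 0.18), with 8.87 to 9.34 in the mutant and 8.18 to 8.88 in wild type. Both 1432129_a_at and 1425526_a_at were higher in the mutant too, by 0.38 (SE 0.23) and 0.28 (SE 0.17). The remaining bright one, 1425527_at, differed by -0.04 (SE 0.19), and 1458004_at, at signals of 1.72 to 30.9, by -0.61 (SE 0.73). With the mean of all 6 the Prrx1 difference was 0.14 (limma adjusted p = 0.989).

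**Figure D2:**
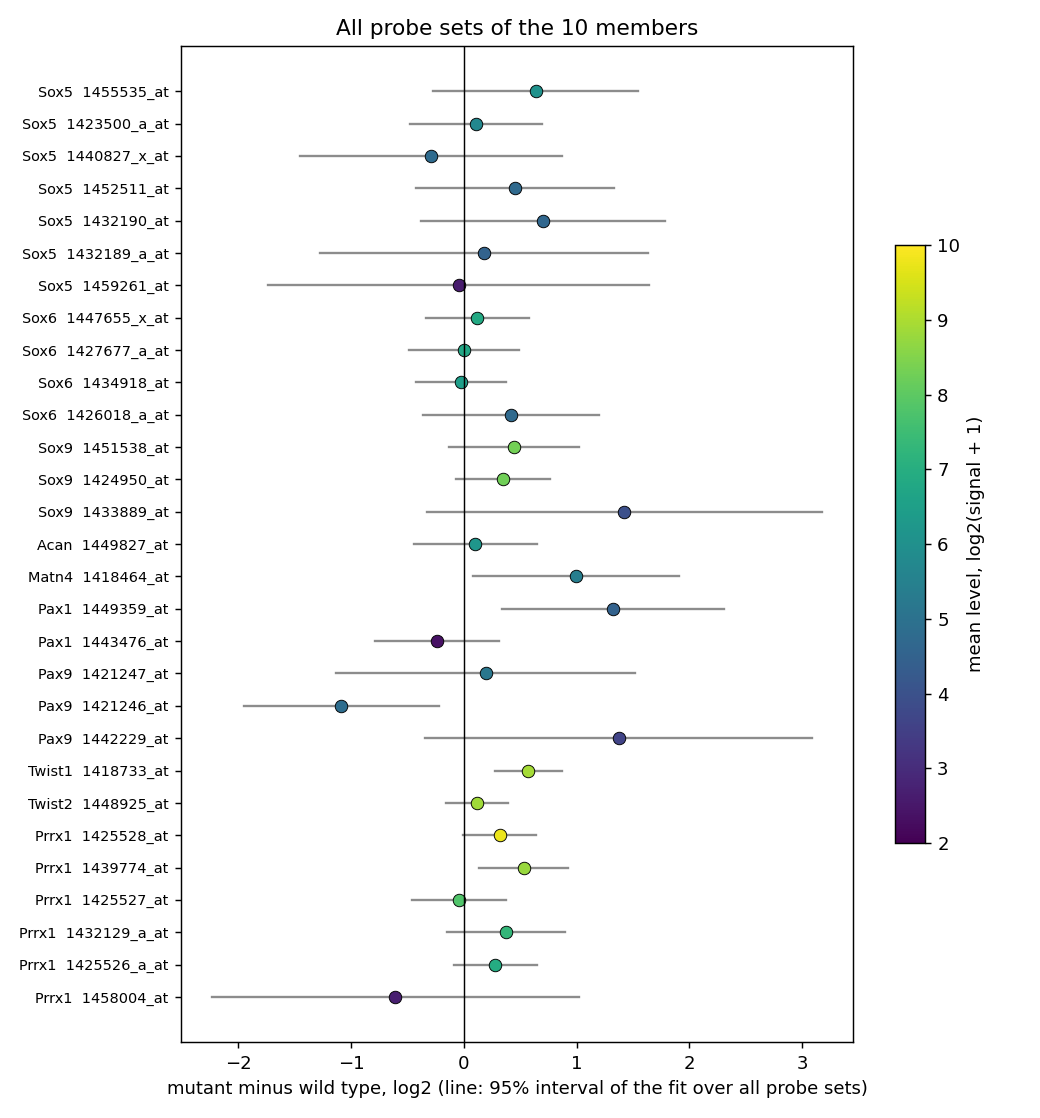
Mutant minus wild type on the log2 scale for all 29 probe sets, grouped by gene and ordered by brightness within a gene, with 95% intervals of the limma fit over all probe sets. Colour is the mean level. Intervals are narrow for Twist1, Twist2 and the bright Prrx1 probe sets and wider for most dim ones, but not for the dim Pax1 1443476_at (SE 0.25). Standard errors run from 0.12 to 0.79, and the Pax9 probe sets from -1.09 to 1.37.

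Among the Sox factors, Sox9 was well above the genes of other organs. Its brightest probe set read 8.69, 8.74, 7.57, 8.89 and 8.66 in mutant replicates 1 to 5, against 7.85, 7.90, 8.46, 7.95 and 8.18 in wild type. Mutant replicate 3 was the lowest of all 10 arrays, and the other 4 mutant arrays were above all wild-type arrays. The difference was 0.44 (SE 0.25, 95% interval -0.12 to 1.00, limma adjusted p = 0.946, exact permutation p = 0.143). Without mutant replicate 3 it was 0.68 (limma adjusted p = 0.518). On a second probe set of like brightness, 1424950_at, mutant replicate 3 was at 8.31, close to the 8.33 and 8.37 of mutant replicates 1 and 2, and the Sox9 difference was 0.35 (SE 0.19). The low reading of that array was thus not shared by both probe sets. The dim 1433889_at gave 1.42 (SE 0.79), and the mean of the 3 gave 0.74 for Sox9, with an unadjusted limma p under 0.05 (limma adjusted p = 0.892). High-18S arrays alone gave 0.74 for Sox9 and low-18S arrays alone 0.25.

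Sox5 and Sox6, the partners of Sox9, had levels close to the array medians. Sox5 read 6.12 to 6.86 in the mutant (median 6.23) and 4.06 to 6.46 in wild type (median 6.03), a difference of 0.64 (SE 0.40, 95% interval -0.27 to 1.54, limma adjusted p = 0.959). Wild-type replicate 3 was alone at 4.06, and without it the Sox5 difference was 0.22, or 0.10 also without mutant replicate 2, the highest array. High-18S arrays alone gave 0.21 for Sox5 and low-18S arrays alone 0.92. The 6 other Sox5 probe sets gave -0.29 to 0.70, with 1440827_x_at and 1459261_at below 0. Sox6 read 6.39 to 7.25 in the mutant and 6.57 to 6.95 in wild type, a difference of 0.12 (SE 0.20, 95% interval -0.32 to 0.56, limma adjusted p = 0.999). That Sox6 probe set carries the suffix by which Affymetrix marks probes that can match other sequences, and the next brightest Sox6 probe sets gave -0.00 and -0.03. For Sox6, high-18S arrays alone gave -0.15 and low-18S arrays alone 0.30. The relatives Sox8, Sox10 and Sox13, measured for comparison, were at -0.23, -0.01 and -0.08, with 0 of 3 at an unadjusted limma p under 0.05.

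Of the cartilage matrix members, Matn4, a matrilin that links matrix fibres, was low. Mutant replicates 1 to 5 read 5.78, 5.92, 6.34, 5.78 and 5.55, against 4.31, 5.88, 5.49, 3.53 and 5.17 in wild type. The mutant arrays were close together, and wild type spread over more than 2 log2 units, with replicate 2 at the mutant level. The Matn4 difference was 1.00 (SE 0.41, 95% interval 0.09 to 1.90, limma p = 0.0346, adjusted p = 0.880, exact permutation p = 0.0476), or 0.68 with a pseudocount of 16, which damps dim signals. High-18S arrays alone gave 0.14, low-18S arrays alone 1.57, and all arrays but wild-type replicate 4 gave 0.66. Acan read 5.79 to 6.93 in the mutant and 5.65 to 6.48 in wild type, a difference of 0.10 (SE 0.24, 95% interval -0.43 to 0.63, limma adjusted p = 0.999). The Acan difference was -0.07 without mutant replicate 2 and -0.02 without wild-type replicate 5. It was 0.06 over high-18S arrays and 0.13 over low-18S arrays.

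The sclerotome factors Pax1 and Pax9 had low signals. The brighter Pax1 probe set, 1449359_at, read 5.76, 5.24, 4.15, 5.29 and 5.25 in mutant replicates 1 to 5, against 3.94, 3.33, 5.18, 2.78 and 3.86 in wild type. Wild-type replicate 3 was above mutant replicate 3, and the other 4 mutant arrays were above all wild-type arrays. The Pax1 difference was 1.32 (SE 0.44, 95% interval 0.35 to 2.30, limma p = 0.0129, adjusted p = 0.746, exact permutation p = 0.0159). High-18S arrays alone gave 1.68 and low-18S arrays alone 1.09. It was between 1.06 and 1.66 on leaving out 1 array, 0.76 with a pseudocount of 16, and 0.54 with the mean of both probe sets. The second, 1443476_at, at signals of 2.40 to 8.19, gave -0.23 (SE 0.25). Among the 22 genes of other organs, 1 differed by more than Pax1, the pituitary hormone Prl at 1.54 (SE 0.50). Next in size were Myh6 at 1.20 (SE 1.26) and Lalba at -1.16 (SE 0.59).

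Pax9 had no common direction. Its 3 probe sets differed by 0.19, -1.09 and 1.37 (SE 0.60, 0.39 and 0.77). On the brightest the mutant arrays read 4.03 to 6.96 and the wild-type arrays 4.18 to 5.72. The Pax9 difference there was -1.31 over high-18S arrays and 1.20 over low-18S arrays. On 1421246_at Pax9 was lower in the mutant, with 3.11 to 5.44 against 4.88 to 5.95 in wild type (exact permutation p = 0.0317).

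**Figure D3:**
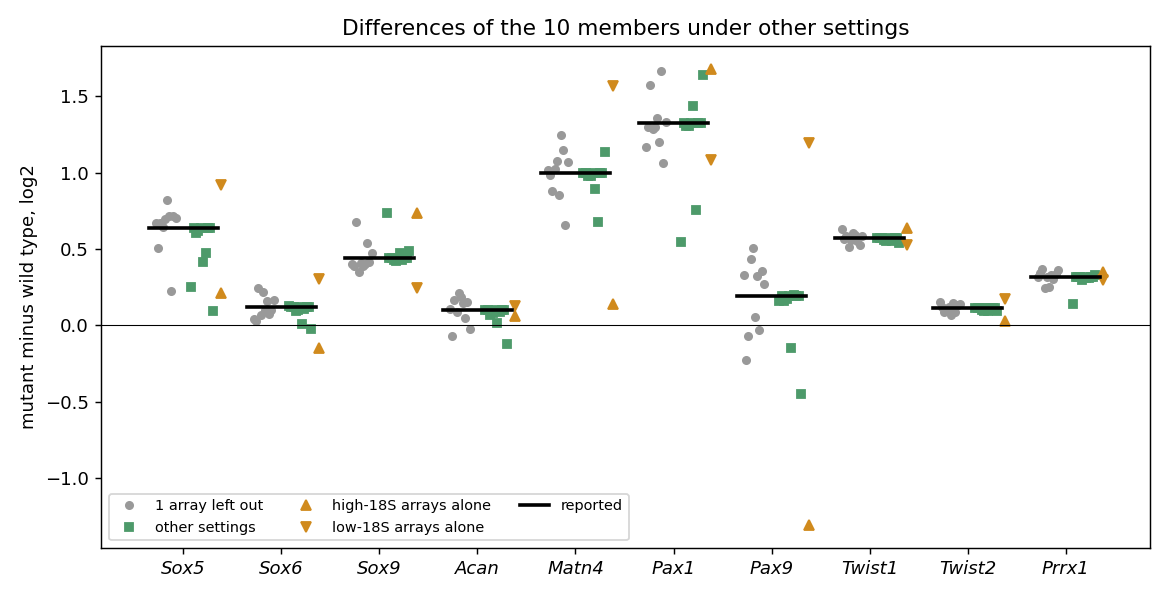
Mutant minus wild type (log2) of each member as reported (black bar), on leaving out 1 array (grey circles), under other settings (green squares) and within the high-18S or low-18S arrays alone (orange triangles). Over these settings Twist1 stays between 0.52 and 0.64, while Pax9 ranges from -1.31 to 1.20 and Matn4 from 0.14 to 1.57.

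Genes that share these programs did not all differ in 1 direction. Of 19 measured further cartilage genes, 11 were higher and 8 lower in the mutant (median 0.28), with 4 higher and 0 lower at an unadjusted limma p under 0.05 and none called. Those 4 were Gdf5, a joint growth factor, at 1.55 (SE 0.58), the joint lubricant Prg4 at 0.93 (SE 0.34), the receptor Pth1r at 0.34 (SE 0.15) and the receptor Fgfr3 at 0.33 (SE 0.14). Gdf5 and Prg4 were dim, with mutant means of 4.68 and 5.20 and wild-type means of 3.12 and 4.27. The link protein Hapln1, which ties aggrecan to hyaluronan, differed by 0.35 (SE 0.20). Of other dim cartilage genes, Ucma and Matn1 differed by 1.10 (SE 0.57) and 0.82 (SE 0.52), and Snorc and Comp by -0.51 (SE 0.63) and -0.28 (SE 0.48). Among 6 other matrilins and lecticans, Matn2 had the smallest limma p, with a difference of 0.47 (SE 0.21).

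Cartilage collagens, which are not members, were measured by 6 genes of the chondrocyte marker list, of which 4 had an unadjusted limma p under 0.05. Col2a1 differed by 0.51 (SE 0.18), Col9a1 by 0.59 (SE 0.10), and the dimmer Col9a2 and Col9a3 by 1.24 (SE 0.31) and 0.98 (SE 0.41), none called. Col11a1, at 8.22 in the mutant and 8.21 in wild type, differed by 0.01 (SE 0.15) and Col11a2 by 0.58 (SE 0.46). The summed signal of 12 chondrocyte markers was 5463 to 6405 in mutant arrays and 3964 to 4400 in wild-type arrays, so the groups did not overlap. Without Col9a1 the sums were 1824 to 2506 in the mutant and 1418 to 1831 in wild type, which overlapped. In that list 9 of 12 were higher and 4 of 12 had an unadjusted limma p under 0.05. Cnmd, Comp, Snorc, Matn1 and Col9a2 averaged under 5 in both groups. Matn3, Col11a2 and Col9a3 had group means of 5.20 to 6.46, and the other markers were brighter. Col9a1 was at 11.89 in the mutant and 11.30 in wild type, Col2a1 at 10.13 and 9.62, and Hapln1 at 8.51 and 8.16. The part of cartilage cells in the members' values was not tested.

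The sclerotome and somite list did not share the direction of Pax1. Of 11 measured genes 5 were higher and 6 lower (median -0.02), with Uncx at -1.28 (SE 0.22), Meox1 at -0.52 (SE 0.18) and Meox2 at -0.54 (SE 0.23) lower at an unadjusted limma p under 0.05. These 3 homeobox genes are also known from the kidney's cap mesenchyme. Tbx18, a T-box factor of somites and of ureteral mesenchyme, was higher by 0.46 (SE 0.16). Nkx3-2, the sclerotome target of Pax1 and Pax9, was dim, at 4.76 in the mutant and 5.03 in wild type.

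Limb and lateral plate genes were lower more often than higher, 13 of 20 against 7 (median -0.09). The 3 with an unadjusted limma p under 0.05 were all lower: Alx1 at -0.85 (SE 0.22), Lmx1b at -0.73 (SE 0.20) and the dim Lhx2 at -1.89 (SE 0.59). Prrx2, the closest relative of Prrx1, was at 0.22 (SE 0.13, limma adjusted p = 0.955). The list of Twist partners and inhibitors also holds other basic helix-loop-helix factors, such as Tcf21 and Scx. Of its 13 genes, Hand1 was higher at an unadjusted limma p under 0.05, by 1.19 (SE 0.51). The E proteins Tcf3, Tcf4 and Tcf12, with which Twist factors pair, were at 0.12, -0.24 and -0.09, and the Id inhibitors at 0.15 to 0.39. Of 8 mesenchymal transition regulators 7 were higher (median 0.15), with Snai1, a repressor of epithelial genes, at 0.46 (SE 0.19), while Snai2, Zeb1 and Cdh2 were at 0.09, -0.01 and 0.02.

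Genes of bone, muscle and tendon gave few differences. Of 5 measured osteoblast genes 2 were higher and 3 lower, with Dlx5 having the smallest p (-0.86, SE 0.78). Of 10 skeletal muscle genes the myogenic precursor factor Pax3 was lower, with a difference of -0.44 (SE 0.14) and an unadjusted limma p under 0.05, and Myf5, which starts the muscle program, averaged 2.21 in the mutant and 2.01 in wild type. Of 5 tendon genes 4 were lower, none at an unadjusted limma p under 0.05, with Tnmd at -0.53 (SE 0.52).

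**Figure D4:**
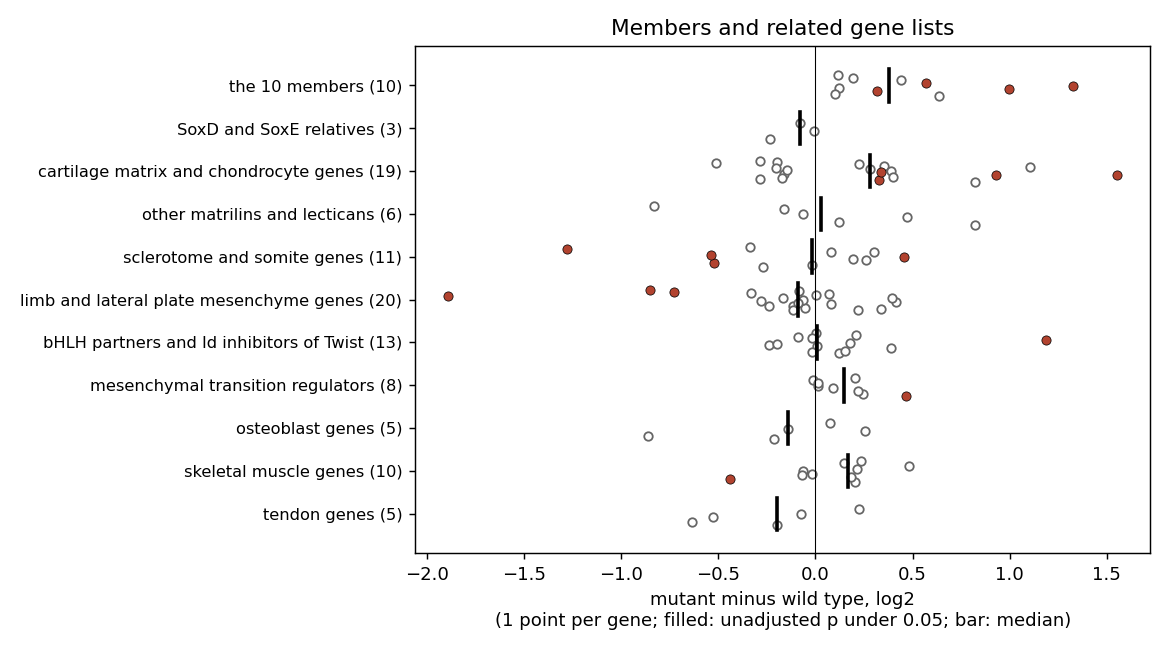
Mutant minus wild type (log2) for the 10 members and for each related list, 1 point per gene, with the number of measured genes in parentheses and the median as a bar. Filled points have an unadjusted limma p under 0.05. The members lie right of 0 with a median of 0.38, the cartilage list has a median of 0.28, and the limb list one of -0.09.

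Summed marker signals of other tissues that the pools could hold overlapped between mutant and wild type in each of the 6 lists given here, and no marker was called. For renal stroma, 11 measured genes had a summed signal of 26190 to 30530 in the mutant and 22050 to 27150 in wild type, with Pdgfra at 0.36 (SE 0.11), Postn at 0.50 (SE 0.17) and Ntn1 at -0.52 (SE 0.17). Of these 11 stromal genes 7 were higher and 4 lower, and without Lgals1 the sums were 16320 to 22560 in the mutant and 16230 to 19580 in wild type. For neural crest and neurons, 6 genes summed to 760.8 to 1065 in the mutant and 590.9 to 794.5 in wild type, with Stmn2 at 0.67 (SE 0.19) and the crest factors Foxd3 at 0.99 (SE 0.32) and Sox10 at -0.01. All 8 endothelial genes were higher, by a median of 0.14, and their sums overlapped, at 2884 to 3870 in the mutant and 2892 to 3766 in wild type. Skeletal muscle markers summed to 641 to 1252 in the mutant and 715.6 to 1052 in wild type. Ureteric bud genes, relevant to Sox9, summed to 1878 to 4811 in the mutant and 2501 to 4019 in wild type, with Ret at 0.16 and Epcam at -0.09. Erythroid genes, relevant to Sox6, summed to 28830 to 48470 in the mutant and 26320 to 54760 in wild type. The metanephric mesenchyme list was lower in 9 of 11 genes, with sums of 5124 to 8858 in the mutant against 9363 to 11170 in wild type, which did not overlap. The part of these other tissues in the members' values was not tested.

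Profiles over the 10 arrays were compared for the 4 members that averaged at least 7, after centring each gene on its own mean, against 9280 genes of at least that level. The smallest root-mean-square differences to Twist1 were 0.10 for Bmper, a secreted regulator of BMP signalling, 0.10 for the matrix protease Adamts9 and 0.105 for Col25a1, a membrane collagen, where the median gene was at 0.37. These 3 genes differed between mutant and wild type by 0.55, 0.45 and 0.51. Differences near that of Twist1 follow from the choice, which used the same arrays. Nearest to Prrx1 was Cdh5, the endothelial cadherin, at 0.06, followed by Tubb2a at 0.10 and Tbc1d32 at 0.11. Nearest to Sox9 were Id4 and Id2, inhibitors of basic helix-loop-helix factors, at 0.16 and 0.21, and the noncoding Snhg14 at 0.22. Twist2, which varied little (SD 0.13 over arrays), was nearest to Nsun6, Gpam and Washc5, at 0.06 to 0.07. These likenesses describe 10 arrays.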

How the data were processed

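Total RNA (about 1 ug per pool) from metanephric mesenchyme was labelled and hybridised to 10 arrays, 1 per pool, per the labels' protocols. The deposited table holds probe-set intensity values on a linear scale. The authors had scaled the arrays before deposit, since each had a mean of 250 after trimming 2% at each end. How probes were summarised is not stated by the labels used here. Of 45101 probe sets, 64 controls were left out and 34945 had 1 gene symbol, 34741 of them matched to RefSeq (GRCm38.p6). A gene stood on its probe set with the highest mean. Values were log2(signal + 1), which understates changes of dim genes, with no further normalization.

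Groups followed the genotype labels, and replicate numbers, in the order of the samples, only name arrays. The limma 3.58.1 fit (R 4.3.3; lmFit, eBayes, 2-sided) ran over all genes, and again over all 45037 non-control probe sets, with Benjamini-Hochberg adjustment. It was tested on simulated data. Exact permutation tests (2-sided, unadjusted, all arrangements of 5 and 5 arrays) were run for the 10 members and for their 29 probe sets. Precision is limited by 5 arrays per group. Members, lists and the alternatives in the closing section were chosen with earlier results of these data known. Named list genes were up to 4 with the smallest limma p among those under 0.05, or the 1 smallest; other named list genes were chosen after their values were seen. Some genes stand in more than 1 list. Of 217 list entries, those with no probe set of 1 symbol are not analysed here.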

Additional observations from a re-analysis of the deposited data

Results flagged for a closer look

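For each of the 29 probe sets and each group of 5 arrays, 58 groups of values in all, an array standing far from the rest of its group was looked for. By chance about 1 in 20 groups holds one, which makes 2.9, and 8 groups did. Bright ones were Sox9 on 1451538_at, at 7.57 in mutant replicate 3, where the rest of the mutant lay at 8.66 to 8.89, and Sox9 on 1424950_at, at 8.80 in mutant replicate 4 against 8.31 to 8.45. Sox5 on 1455535_at stood out in both groups, at 6.86 in mutant replicate 2 against 6.12 to 6.33, and at 4.06 in wild-type replicate 3 against 5.99 to 6.46. These 2 arrays had the brightest hybridisation controls of their groups. Dimmer cases were Sox5 on 1459261_at, at 5.31 in wild-type replicate 3 against 1.72 to 2.29, and Sox6 on 1426018_a_at, at 6.10 in mutant replicate 1 against 4.47 to 4.73. Prrx1 on 1458004_at was at 4.25 in mutant replicate 2 against 1.65 to 2.28, and wild-type replicate 4 read 3.20 for Pax1 on 1443476_at, where its group otherwise spanned 2.19 to 2.38.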

How the results depend on the processing

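Over 23 alternatives, no member was called, and the smallest adjusted p was 0.0962, for Twist1 with trend and robust moderation. A member's difference cannot change with each probe set on its own, without the dimmest 40%, with trend and robust moderation or with either block. Nor can the mean of probe sets change the difference of a gene with 1 probe set. Of 225 member values under alternatives, these included, 214 kept their direction. The 11 that turned were Sox6 at -0.15 within the high-18S arrays and -0.0206 after leaving out the 2 arrays whose hybridisation controls were brightest (mutant replicate 2 and wild-type replicate 3, chosen after seeing the data), Acan at -0.12 without the same arrays and -0.0704 to 0.21 on leaving out 1 array, and Pax9 at -0.15 with array weights, -1.31 within the high-18S arrays, -0.45 without those arrays and -0.23 to 0.50 on leaving out 1 array. The cause was not tested. Twist1 had an unadjusted limma p under 0.05 in 23 of 23 alternatives, Pax1 in 21 of 22, Matn4 in 14 of 22 and Prrx1 in 11 of 23. Without the dimmest 40% of genes, Sox5, Acan, Pax1, Pax9 and Matn4 were not tested. Twist1 minus Twist2 was 0.40 to 0.53 on leaving out 1 array. Of all genes 1 was called, against 0 with the mean of probe sets, either block, either 18S set alone or without the brightest-control arrays, 2 with each probe set on its own, 6 without the dimmest 40%, 10 with trend and robust moderation, and 0 to 2 on leaving out 1 array. With the replicate block, for arrays whose titles share wording, 0 genes were called and Twist1 had an adjusted p of 0.539. Deviations of the 3 such pairs correlated at 0.098 to 0.14, so pairing is not settled. The median gene difference stayed between -0.01 and 0.05. With no detection calls, the 6 members within the range of genes of other organs are limited by signal over background. They were not equally dim, from percentile 25.9 of probe sets for Pax1 to percentile 60.0 for Sox6.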
